A study of Drosophila melanogaster with 4 samples.

Results

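homothorax (hth) lies on chromosome arm 3R of Drosophila melanogaster and encodes a homeodomain cofactor of the Hox proteins. The binding of an Abd-B-GFP fusion protein was examined over an interval of 180 kb of 3R (3R:6300000-6480000, FlyBase release 5) that was taken as the hth gene with its flanks. A peak belonged to the interval when its midpoint fell inside it. The interval held 12 of the 1048 peaks on 3R and of the 4389 peaks in the whole list. The rule uses position only and no measured value of a peak, but the interval was chosen with earlier results of these data known.

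Hth is a homeodomain protein of the TALE class and the fly counterpart of the vertebrate MEIS proteins. It binds Extradenticle (Exd), carries it into the nucleus and joins Hox proteins on DNA, where the complex binds with more selectivity than a Hox protein alone. In the imaginal discs of the larva hth is active in the proximal parts of the appendages. Abd-B is the most posterior Hox protein of the bithorax complex, and in the posterior abdomen it is known to antagonise Hth and Exd. The comparison concerns where a Hox protein was bound around the gene of a cofactor of Hox proteins.

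The data came from third-instar larvae (stage L3) of the strain Abd-B-GFP, with the genotype w; PBac{y[+]-attP-3B}VK00037 and a transgene in which GFP took the place of the stop codon of a genomic Abd-B copy. Chromatin immunoprecipitation with a rabbit polyclonal antibody against GFP gave 2 ChIP libraries, and 2 input libraries were made beside them. All 4 libraries are labelled with the same genotype, so no group is labelled as lacking the fusion protein. The protocol names another stock (y; bw cn sp) than the sample labels do, the sex is given as unknown, and the presence of the fusion in these larvae cannot be checked from the peak list. The result used here was 1 peak list for the series. It keeps no library apart, so no value below has a replicate error, and the depth is unknown. Whole larvae were used, and binding in few cells cannot be told apart from weak binding in many.

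A peak is listed with its start, its end and a single score, the authors' own value from the peak caller. The file does not define the score. Below, a stronger peak means only one with a higher score, and how the score relates to the amount of binding was not tested. Over the whole list the scores ran from 6.18 to 264.05 with a median of 15.46. Peaks are numbered below from 1 to 12 by position along the arm. The positions of hth exons and introns on release 5 were not used here, so the peaks are placed within the interval and not within the gene. In the RefSeq gene table, which is on release 6 and was used for names and order only, hth (CG17117) was found by its symbol. The microRNA gene mir-4944 lies inside it and the antisense RNA gene asRNA:CR44018 overlaps it in part. The neighbours are lncRNA:CR45576 on the side of lower positions and the protein-coding gene CG6465 on the other.

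Abd-B-GFP peaks were numerous around hth and of middling strength. The interval held more peaks than most stretches of 3R of its size, and their summed width was larger. The strongest of them were a close pair in the upper part of the interval, peaks 10 and 11. A broad peak of moderate score, peak 7, was the widest. The interval was empty over its last 31.6 kb, and its lower 44 kb held only 1 weak peak at the very edge.

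**Figure D1:**
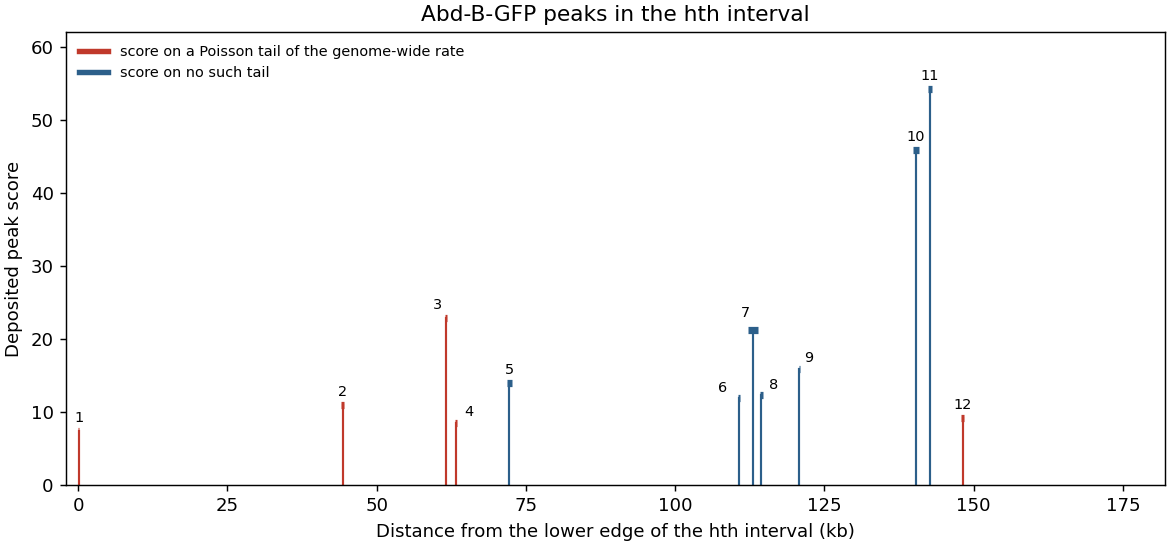
The 12 peaks of the hth interval, with the distance of each midpoint from the lower edge of the interval (kb) on the x axis and the deposited peak score on the y axis. Each horizontal bar is drawn to the width of its peak, the vertical lines only join it to the axis, and the numbers give the order along the arm. Peaks 10 and 11 stand at 45.89 and 54.24, and the other 10 lie between 7.38 and 22.88. Red marks the 5 scores that equal a Poisson tail at the background rate fitted to the list, as explained in the text.

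Peaks 10 and 11 were the only ones in the interval with a score above 25.30, the upper quartile of 3R. Peak 11 (3R:6442332-6443075) had a score of 54.24 and a width of 744 bp. Peak 10 (3R:6439809-6440776) had a score of 45.89 and a width of 968 bp. The gap between them was 1555 bp. Peak 12 (3R:6447945-6448360) followed 4869 bp after peak 11, with a score of 9.18 and a width of 416 bp. The strong pair therefore ended in a weak peak, beyond which no peak was called for 51535 bp.

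On the whole arm peak 11 was strong but not extreme, since 90.6% of the 1048 peaks on 3R had a lower score. It was nevertheless the strongest peak of a long stretch. The nearest peak with a higher score on the side of lower positions lay 912 kb away between midpoints (3R:5530192-5530963, score 61.14). On the other side the nearest lay 836 kb away (3R:7277718-7278843, score 59.77). Of the peaks on 3R, 19 (1.81%) had no stronger peak within 800 kb on either side. Their median score was 147.97, and peak 11 had the lowest score of the 19. The distance of 800 kb was chosen after these values were seen, so the count is a description.

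A second group lay in the middle of the interval. Peak 7 (3R:6412220-6413838) was 1619 bp wide with a score of 21.22. Peak 6 (3R:6410570-6410817) preceded it by 1402 bp, with a width of 248 bp and a score of 11.92. Peak 8 (3R:6414182-6414709) followed after only 343 bp, the smallest gap of the interval, with a width of 528 bp and a score of 12.32. The central peak was thus flanked on both sides by narrower peaks of lower score. Together these 3 peaks spanned 4140 bp and held 34.2% of all base pairs covered by peaks in the interval. Peak 9 (3R:6420683-6420965) stood alone 5973 bp further on, with a width of 283 bp and a score of 15.81.

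The lower part of the interval held weaker or narrower peaks. Peak 3 (3R:6361446-6361849) had the third-highest score of the interval, 22.88, in 404 bp. Peak 4 (3R:6363185-6363466), 1335 bp further on, had a score of 8.39 and a width of 282 bp. Peak 5 (3R:6371784-6372717) was broad for its score, with 934 bp and 13.93. Peak 2 (3R:6344090-6344471) stood alone, 43896 bp from peak 1 and 16974 bp from peak 3, with a width of 382 bp and a score of 10.86. The 5 peaks in the lower 90 kb had a median score of 10.86, and the 7 peaks in the upper 90 kb had a median score of 15.81. The ranges overlapped, from 7.38 to 22.88 in the lower part and from 9.18 to 54.24 in the upper part. The upper part held 68.6% of the covered base pairs.

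Peak 1 (3R:6299992-6300193) was a member only by a small margin. Its midpoint lay 92.5 bp inside the lower edge, and its first 8 bases lay outside. With a score of 7.38 and a width of 202 bp it was the weakest and narrowest of the 12, and only 18 peaks on 3R had a lower score. The nearest peak outside on that side (3R:6217622-6217878, score 9.69) lay 82.3 kb beyond the edge, as measured to its midpoint. At the upper edge, peak 12 was the last inside, with its midpoint 31.8 kb from the edge, and the midpoint of the nearest outside (3R:6499896-6500138, score 7.83) lay 20.0 kb beyond it. Peaks 2 to 12 thus formed a stretch of 104271 bp, with a gap of 43896 bp before it and one of 51535 bp after it. Gaps wider than these made up 15.7% and 13.6% of the 1047 gaps between neighbouring peaks on 3R. The stretch was itself divided by a gap of 37852 bp between peaks 5 and 6, and 19.0% of the gaps on 3R were wider than that.

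Among windows of equal size, the interval ranked in the upper part by number and coverage and not by strength. The arm, as far as its outermost peaks reach, was divided into windows of 180 kb counted outwards from the interval, which gave 152 others. The interval's 12 peaks (exact Poisson 95% interval 6.20 to 21.0, for counting error only) compared with a median of 6 and quartiles of 3 and 9 in these windows. The mean of these windows, 6.66, lay inside that Poisson interval. Fewer peaks were found in 132 windows, the same number in 5 and more in 15, so that 20 of the 152 (13.2%) held at least as many. The full widths of the 12 peaks summed to 7010 bp, a length equal to 3.89% of the interval, against a median of 3222.5 bp, and 14 windows had a larger sum. This sum is called the covered length. Peaks per 100 kb were 6.67 in the interval and 3.76 over the span of the arm. These values rank the interval among windows and carry no test.

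**Figure D2:**
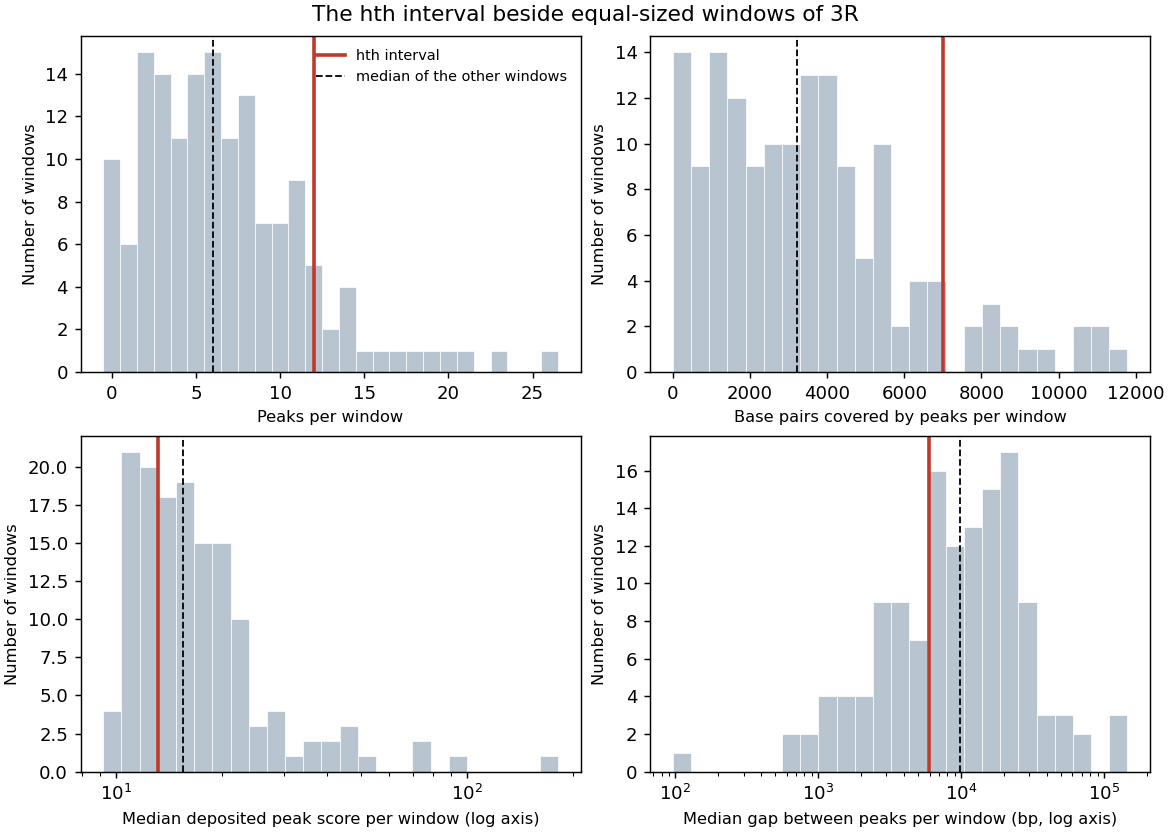
The hth interval (red line) beside the other 180 kb windows of 3R (grey bars, number of windows on each y axis), with their median as a dashed line. The panels show peaks per window, base pairs covered, the median deposited score and the median gap in bp, the last pair on log axes and without the windows that hold too few peaks. The interval lies above the dashed line for number and coverage, at 12 peaks and 7010 bp, and below it for median score and gap, at 13.13 and 5973 bp.

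The median score of the 12 peaks was 13.13, with a range of 7.38 to 54.24. Of the 142 other windows with at least 1 peak, 45 had a lower median and 97 a higher one, and the median of these windows was 15.45. The highest score of the interval, 54.24, was close to the middle of the windows, where 70 had a lower highest score and 72 a higher one. A score at or above 15.46, the median of the whole list, was reached by 5 of the 12 peaks (41.7%, exact binomial 95% interval 15.2 to 72.3%, for counting error only), against 44.8% of all peaks on 3R. Only peak 11 of the 12 exceeded a score of 50 (8.33%, exact 0.211 to 38.5%), against 11.0% on 3R. Both shares lay near those of the arm.

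The median width was 410 bp, against 415.5 bp over all peaks of 3R, and 64 of the 142 windows had a smaller median. Widths above 700 bp occurred in 4 of the 12 peaks (33.3%, exact binomial 95% interval 9.92 to 65.1%), against 23.0% on 3R, a share inside that interval. These 4, peaks 5, 7, 10 and 11, held 60.8% of the covered base pairs. The limit of 700 bp was not fixed in advance. Score and width rose together across the 12 peaks with a Spearman correlation of 0.69, and of 0.76 across the 1048 peaks of 3R. Both are descriptions over peaks of the same libraries and the same peak caller.

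Peaks 5 and 7 departed from that relation. The 1619 bp of peak 7 exceeded the width of all 83 other peaks on 3R with a score within a factor of 1.1 of its own, whose median width was 511 bp. Over the whole arm only 15 peaks were wider. The 934 bp of peak 5 likewise exceeded the width of all 146 peaks of similar score, whose median was 378.5 bp. Peaks wider than every peak of similar score numbered 22 on 3R (2.10%). The hth interval held 2 of them among its 12 peaks (16.7%, exact binomial 95% interval 2.09 to 48.4%). The share on 3R lay just inside this binomial interval, at its lower end. Peak 9 was narrow instead, at 283 bp against a median of 427.5 bp among 96 peaks of similar score, of which 85 were wider. For peak 1, 37 of 42 such peaks were wider. Peaks 3, 6 and 11 were also narrower than most, with 20.5, 24.5 and 26.7% of such peaks narrower. Peak 11 had 744 bp against a median of 900 bp among 45 peaks. Peaks 8, 10 and 12 were wide for their scores, with 87.8, 82.9 and 90.1% of such peaks narrower. This reading by similar score was chosen after the widths were seen.

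**Figure D3:**
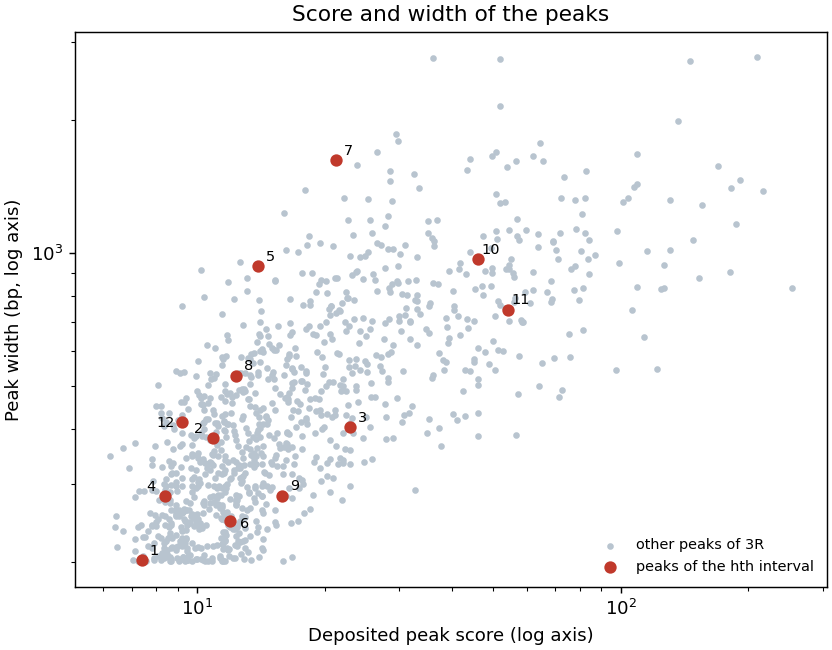
Deposited score (x axis, log) and width in bp (y axis, log) of the 12 peaks of the hth interval (red, numbered along the arm) and of the other peaks of 3R (grey). Peaks 5 and 7, with 934 and 1619 bp, lie along the upper margin of the grey points at their scores, whereas peaks 10 and 11 lie within them.

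The spacing of the peaks was uneven. Between neighbours the gaps ran from 343 to 43896 bp with a median of 5973 bp, against a median of 9887 bp on 3R. Of the 136 other windows with at least 2 peaks, 43 had a smaller median gap. With neighbours joined where the gap was at most 5 kb, the 12 peaks formed 7 units: peaks 3 and 4, peaks 6 to 8, peaks 10 to 12, and peaks 1, 2, 5 and 9 alone. Such groups of 2 or more held 8 of the 12 peaks (66.7%, exact binomial 95% interval 34.9 to 90.1%), against 56.5% of the peaks on 3R, a share inside that interval. Gaps of at most 1 kb were fewer, at 1 of the 11 gaps (9.09%, exact 0.230 to 41.3%) against 17.7% on 3R, which also lay inside the interval. Grouping beyond that of the arm was therefore not shown. The 3 widest gaps, of 43896, 37852 and 18843 bp, separated peaks 1 and 2, peaks 5 and 6, and peaks 9 and 10. Together they made up 100.6 kb. The peaks of the interval thus lay in several separate groups.

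The surroundings on the same arm held fewer peaks nearby. The adjoining window of lower positions held 6 peaks with scores up to 49.36, and the one before it also held 6. The next window down (3R:5760000-5939999) held 20, with a highest score of 43.98. On the side of higher positions the adjoining windows held 3, 5 and 1 peaks, with highest scores of 17.70, 15.02 and 18.97. The window of hth thus had more peaks than its immediate neighbours on either side and a higher top score than all 6 of these windows, of which the second one down came nearest with 50.69.

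**Figure D4:**
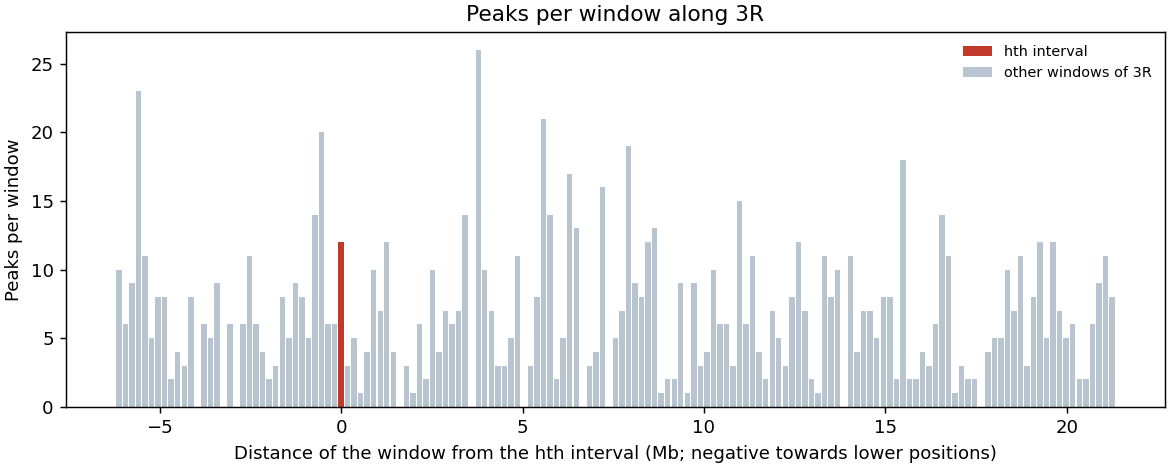
Peaks per 180 kb window along 3R, with the distance of each window from the hth interval in Mb on the x axis and the number of peaks on the y axis. The red bar is the hth interval with 12 peaks, and the highest grey bars reach 20 to 26.

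Windows with as many peaks differed widely in the strength of those peaks. The 5 other windows with 12 peaks lay at 3R:7560000-7739999, 3R:14760000-14939999, 3R:18900000-19079999, 3R:25560000-25739999 and 3R:25920000-26099999. Their highest scores ran from 17.30 to 103.92 and their median scores from 10.97 to 21.05, so the 54.24 and 13.13 of the hth interval lay inside both ranges. The covered length ran from 3931 to 8245 bp, and 1 of the 5 exceeded the 7010 bp around hth. The 3 windows with the most peaks held 26 (3R:10080000-10259999), 23 (3R:720000-899999) and 21 (3R:11880000-12059999), and their highest scores were 99.09, 76.23 and 187.09. Which genes these windows hold was not analysed here.

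Some of the scores equalled values that 1 Poisson background rate would give. Over the whole list, 877 of 4389 scores (20.0%) equalled, to the last printed decimal, −log10 of the Poisson probability of more than some whole number of fragments (a Poisson tail) at 1 background rate, 66.432 per position. Rates more than 0.1 away matched at most 330 scores. MACS compares a peak with whichever of its genome-wide and local backgrounds is larger, and a peak set against the genome-wide rate would have a score on such a tail. Whether the matching scores arose in this way was not tested. Around hth 5 of the 12 scores matched (41.7%, exact binomial 95% interval 15.2 to 72.3%), against 17.4% on 3R, a share inside that interval. Among all steps of 0.01 between the lowest and the highest score of the interval, 2.45% were such tails. This is not a chance rate, since it weights all steps evenly and the rate was fitted to a list that includes these peaks.

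The matching scores were those of peaks 1 to 4 and of peak 12. At that rate peak 3 corresponded to more than 162 fragments, which is 2.44 times the rate. Peak 2 corresponded to more than 127 fragments, peak 12 to more than 121, peak 4 to more than 118 and peak 1 to more than 114. Peak 5 missed a tail by 0.01. The 6 peaks from peak 6 to peak 11, which include the 2 strongest and the widest, matched none and missed the nearest tail by 0.03 to 0.21. The matching peaks thus came first and last in order along the interval, with only peak 12 at the upper end, and the others lay between them. Position ran together with score, since the 4 lowest scores of the interval (peaks 1, 4, 12 and 2) all matched. The median score was 9.18 for the 5 matching peaks and 15.81 for the other 7. No input values per position were used here, and the part of the local background in the scores of peaks 6 to 11 was not tested.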

How the data were processed

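Per the labels, 2 ChIP and 2 input libraries were made from Abd-B-GFP larvae. The deposited peak list is on FlyBase release 5 (BDGP5) and comes from MACS, per the file headers. The submitters' processing notes name MACS2, BWA and CASAVA (1.7.0.2 and 1.7.0.3). For the threshold of the call and the handling of replicates and input, no settings were found in the labels or the file. Each deposited peak score is the authors' value and was used only to describe and rank peaks.

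Members were found by the midpoint rule; they and the lists were chosen with earlier results of these data known. The naming rule (the 10 highest scores, the 3 widest peaks, those beside the 3 widest gaps, the 3 windows closest in peak count and the 3 with the most peaks) took in all 12 members, and 5 windows tied in count. Medians leave out windows without peaks, and median gaps those with fewer than 2. Intervals on shares are exact Clopper-Pearson and take peaks as independent. Background rates from 2 to 300 in steps of 0.01, then of 0.001 around the best, were matched to the scores. The closing section gives the alternatives. Calculations used Python 3.11.15, pandas 2.3.3 and SciPy 1.17.1. The fit of the background rate, the counts, coverage and median scores of windows, and the merging of peaks were tested on simulated data. The other calculations were not. No sequence was read, since no genome of release 5 was used here.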

Additional observations from a re-analysis of the deposited data

How the results depend on the processing

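Of 71 recomputed values, 63 stayed within the limits set for them: a factor of 1.5 for the number of peaks and covered base pairs, and the exact binomial 95% interval for medians and for ranks among windows. These limits are wide with 12 peaks, and other windows leave the interval's own values as they are by construction. With the stricter list of peaks scoring 15.46 or more, 5 peaks and 4018 covered bp were left, as a shorter list gives by construction. There the median gap went from 5973 to 12843.5 bp and the median width from 410 to 744 bp, both inside their limits. The median score went from 13.13 to 22.88, exactly its upper limit, and was counted as within it. A cut by score raises the median score by construction, and width rose with score. The percent of windows with a lower value then moved from 86.8 to 78.9% for the number of peaks, from 90.8 to 84.9% for coverage and from 45.1 to 62.1% for median width. Merging peaks less than 1 kb apart joined peaks 7 and 8. It moved that percent to 92.8% for the number of peaks, to 30.3% for median width and from 31.6 to 20.7% for the median gap. The cause was not tested. Shifted windows, 5 major arms, trimmed flanks, any overlap, leaving out peak 1 and a tolerance of 0.01 for tails (6 peaks), the last 2 added after seeing the data, moved no value past these limits. Without peak 1, 80.9% of windows had fewer peaks. No paired analysis was possible because single libraries cannot be read from the list, which also means that no replicate was left out. Depth is unknown and limits the weakest peaks first.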
